A study of Mus musculus with 67 samples.

Results

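Neural commitment in the absence of a Hedgehog agonist was followed as the step from neuromesodermal progenitors (NMPs) at day 3 of differentiation to p0-1 neural progenitors (NPs) at day 4 in 0 nM SAG, the Smoothened agonist that switches on Hedgehog signaling in the other cultures. The samples were chosen by their labels alone, and the 3 NMP and 3 p0-1 samples make 6 of the 67 in the series. All came from HM1 mouse embryonic stem cells, a single line, and the replicates were independent differentiations. The cultures first received bFGF with the Wnt secretion inhibitor LGK, and then bFGF with the Wnt agonist CHIR99021, the TGF-β receptor inhibitor SB-431542 and the BMP receptor inhibitor DMH1, which gave the NMPs. From day 3 the p0-1 cultures received retinoic acid (RA) in place of these agents. The effects of time, of RA and of the withdrawal of bFGF, CHIR99021, SB-431542 and DMH1 therefore cannot be told apart.

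Accessibility was measured by CaTS-ATAC, in which fixed cells are exposed to the Tn5 transposase, stained for intracellular transcription factors and sorted before the library is made. The p0-1 gate took SOX2+ PAX6+ NKX6.1- cells, so the genes of these proteins helped to choose the cells. NMPs are cells of the caudal embryo that can enter either the spinal cord or the paraxial mesoderm. They are maintained by Wnt and FGF signals and express T and the Cdx genes, whereas RA drives them towards neural fates. Most of the DNA elements that open or close in such a step are enhancers far from promoters, where Sox proteins, RA receptors, Cdx proteins and the TCF/LEF effectors of Wnt signaling bind. In sorted bulk samples, fewer cells with an open element and a lower accessibility in each cell cannot be told apart.

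The values were normalized read counts in consensus elements, recovered from the deposited table. The 6 samples held between 16809239 and 21532874 reads in 111638 elements. Replicates were alike, with a squared Pearson correlation across elements of 0.948 to 0.959 between NMP samples and 0.939 to 0.957 between p0-1 samples, against 0.459 to 0.611 between the groups. Elements are not independent replicates. An element was called opened or closed when its adjusted p was under 0.01 and its log2 ratio of p0-1 over NMP mean normalized counts, with a pseudocount of 1, was above 2 or below -2. It was tested when its mean over the 6 samples was above 100 normalized counts.

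Sequences of 8 elements were chosen to show what opened and what closed. Each is the central 300 bases of its element, from GRCm38, plus strand, 5′ to 3′, with exact motif letters on either strand in capitals. The first 4 opened. At Sema3d and Dbx1 the capitals mark the SOX letters ACAAAG or ACAATG, and at Irx3 and Meis1 they mark the SOX letters and the nuclear receptor letters AGGTCA. The other 4 closed. At Znrf3, Nkd1 and Cdx4 they mark the TCF/LEF letters ATCAAAG, and at T, the gene of Brachyury, the SOX letters and the CDX letters TTTATGG or TTTATTG. All 8 hold the letters marked and do not show how frequent these are. Of all closed elements 8.80% held the TCF/LEF letters, and of all opened ones 60.3% held the SOX letters.
Sema3d chr5:12525228-12525527: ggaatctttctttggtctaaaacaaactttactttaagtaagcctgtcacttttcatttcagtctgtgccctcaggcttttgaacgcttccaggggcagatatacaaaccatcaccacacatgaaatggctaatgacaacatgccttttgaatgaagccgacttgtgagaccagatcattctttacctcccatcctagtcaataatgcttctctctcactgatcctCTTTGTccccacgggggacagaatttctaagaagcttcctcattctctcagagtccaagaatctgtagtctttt
Dbx1 chr7:49696465-49696764: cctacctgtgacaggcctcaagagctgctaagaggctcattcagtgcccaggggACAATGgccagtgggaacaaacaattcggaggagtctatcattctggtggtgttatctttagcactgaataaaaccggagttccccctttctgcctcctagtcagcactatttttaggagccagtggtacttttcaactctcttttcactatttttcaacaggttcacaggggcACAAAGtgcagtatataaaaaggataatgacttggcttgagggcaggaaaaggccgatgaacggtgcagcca
Irx3 chr8:91853955-91854254: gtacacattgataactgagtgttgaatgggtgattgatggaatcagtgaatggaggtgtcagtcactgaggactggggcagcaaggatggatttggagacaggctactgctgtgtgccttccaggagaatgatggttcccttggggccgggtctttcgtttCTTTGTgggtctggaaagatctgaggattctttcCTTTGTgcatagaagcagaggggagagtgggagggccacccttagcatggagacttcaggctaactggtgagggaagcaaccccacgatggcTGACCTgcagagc
Meis1 chr11:18885735-18886034: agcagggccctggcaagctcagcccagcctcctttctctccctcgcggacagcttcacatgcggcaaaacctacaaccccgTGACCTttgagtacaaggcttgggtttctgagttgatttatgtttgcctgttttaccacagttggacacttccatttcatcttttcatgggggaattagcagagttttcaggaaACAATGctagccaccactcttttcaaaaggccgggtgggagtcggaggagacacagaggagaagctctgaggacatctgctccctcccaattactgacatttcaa
Znrf3 chr11:5411610-5411909: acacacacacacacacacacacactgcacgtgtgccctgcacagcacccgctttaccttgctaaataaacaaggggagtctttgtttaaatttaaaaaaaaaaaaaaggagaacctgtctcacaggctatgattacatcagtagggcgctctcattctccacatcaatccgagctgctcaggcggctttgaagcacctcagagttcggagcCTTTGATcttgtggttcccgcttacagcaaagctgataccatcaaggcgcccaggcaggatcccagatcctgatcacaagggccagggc
Nkd1 chr8:88495344-88495643: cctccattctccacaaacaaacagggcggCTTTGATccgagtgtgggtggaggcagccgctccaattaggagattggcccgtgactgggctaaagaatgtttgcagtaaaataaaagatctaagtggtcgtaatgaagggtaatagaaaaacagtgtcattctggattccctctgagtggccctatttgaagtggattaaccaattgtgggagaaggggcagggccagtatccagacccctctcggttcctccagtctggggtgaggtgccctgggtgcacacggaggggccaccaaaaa
Cdx4 chrX:103326278-103326577: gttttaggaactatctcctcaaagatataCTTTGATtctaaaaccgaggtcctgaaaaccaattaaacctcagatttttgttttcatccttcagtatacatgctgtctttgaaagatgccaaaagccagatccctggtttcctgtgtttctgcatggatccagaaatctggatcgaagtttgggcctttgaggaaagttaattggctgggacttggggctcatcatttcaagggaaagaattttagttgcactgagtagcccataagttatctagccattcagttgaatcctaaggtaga
T chr17:8414697-8414996: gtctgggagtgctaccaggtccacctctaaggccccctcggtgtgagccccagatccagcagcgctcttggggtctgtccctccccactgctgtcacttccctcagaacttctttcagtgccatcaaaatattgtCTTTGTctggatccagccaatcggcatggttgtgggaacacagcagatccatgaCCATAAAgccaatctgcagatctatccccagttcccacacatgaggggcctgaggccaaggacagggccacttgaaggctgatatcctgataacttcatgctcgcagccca

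More elements opened than closed past a log2 ratio of 2, an order that turned at a log2 ratio of 1. The low NMP level of opened elements and the low p0-1 level of closed ones follow from how they were called. Of 32200 tested elements, 4095 (12.7%) opened and 3160 (9.81%) closed between NMPs and p0-1 NPs (limma with Benjamini-Hochberg adjusted p under 0.01). The median opened element rose from 21.7 normalized counts in NMPs (interquartile range 10.2 to 42.1) to 342 in p0-1 NPs (240.3 to 556). The median closed element fell from 306 (225 to 479.8) to 44.5 (27.9 to 75.2). In NMPs 1000 of the opened elements (24.4%) had a mean under 10 normalized counts, whereas 139 of the closed ones (4.40%) were that low in p0-1 NPs. The ratio exceeded 32-fold in 1086 opened elements (26.5%) and in 96 closed elements (3.04%).

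The balance of the calls moved with the threshold and the scaling. At a log2 ratio above 1 or below -1, 5198 elements opened and 10000 closed, so that opened elements were 34.2% of the calls. The median log2 ratio of all tested elements was -0.57, and directions below are relative to the deposited scaling unless this shift is named. When samples were rescaled on promoter-TSS elements the median became -0.05, and 5307 elements opened and 1631 closed of 32303. When samples were centered on their medians, 4515 opened and 2040 closed. At a log2 ratio above 2 or below -2 the opened share of all calls was 56.4% as deposited, 76.5% on the promoter scale and 68.9% after centering. The 3 samples of each group did not overlap in any of the called elements, nor in 83.9% of all tested elements. At the threshold, the last element counted as opened, at Abhd12b, had a log2 ratio of 2.00122 and the next one, at Ankrd28, 1.99999, and the corresponding closed pair, at F2rl3 and Tor1b, had -2.0001 and -1.99992.

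**Figure D1:**
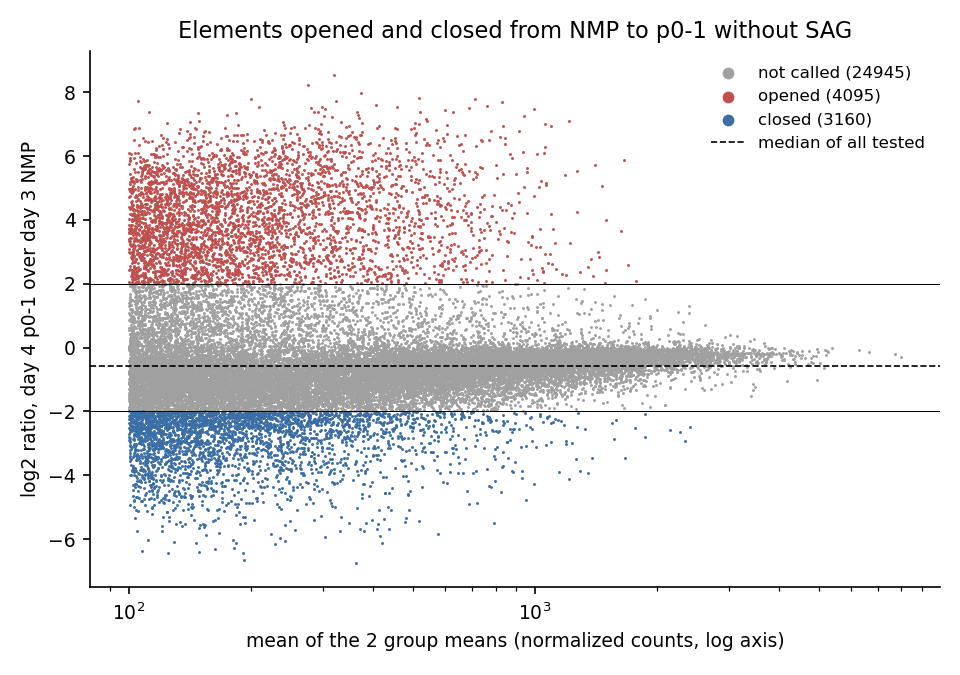
Each point is 1 of 32200 tested elements, with the mean of the group means in normalized counts on a log x axis and the log2 ratio of day 4 p0-1 over day 3 NMP on the y axis. The 4095 opened elements reach a log2 ratio of 8.54 and the 3160 closed ones -6.75, while the dashed line shows the median of -0.57.

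Opened elements lay farther from the nearest TSS than closed ones. Their median distance to the nearest TSS was 52.5 kb, against 15.2 kb for closed and 6.19 kb for all tested elements. Of the 9313 intergenic elements 1968 opened and 1392 closed, and of the 10706 in introns 1957 opened and 1174 closed. Exons differed, with 88 opened and 303 closed of 4213. At promoter-TSS elements 48 of 7309 opened (0.657%) and 216 closed (2.96%), so that promoters made up 22.7% of tested elements, 1.17% of opened and 6.84% of closed ones. The median GC content was 46.2% in opened, 52.2% in closed and 53.8% in all tested elements.

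The opened elements had 2823 nearest genes and the closed ones 2644, of which 507 were shared (18.0% of the former and 19.2% of the latter). The nearest TSS need not be that of the gene an element acts on. The genes with the most opened elements were Zfp608, with 12 of 22 tested, 9430078K24Rik with 10 of 17, and Sox6, a SoxD transcription factor gene, with 9 of 9. Btbd3, Nkx6-1, Nr2f1 and Tle1 had 8 each. Nr2f1 encodes the nuclear receptor COUP-TFI and Tle1 a Groucho co-repressor. At Sox6, the log2 ratios of the 9 elements lay between 3.99 and 5.26, at 91.4 to 493 kb from the TSS. The genes with the most closed elements were C77080, Mir692-2 and Sipa1l2, with 6 each. Among those with 5 were Sp5, a Wnt target gene, for all of its 5 tested elements, Cdh1, the gene of E-cadherin, for 5 of 7, Tfap2c for 5 of 8, and Ddit4 for 5 of 10. The strongest closed element of Cdh1, in an intron at chr8:106610497-106611530, had 513, 522 and 381 normalized counts in the NMP samples and 29.9, 21.6 and 21.3 in the p0-1 samples. Cdh2, the gene of N-cadherin, had the opposite sequence of levels at an intergenic element 515 kb from its TSS, with 2.42, 9.44 and 7.54 normalized counts in NMPs and 1668, 1058 and 1389 in p0-1 NPs (VST difference 6.38 ± 0.23 SE, n = 3 per group, limma with Benjamini-Hochberg adjusted p = 2.7e-12).

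The largest increases came from elements with almost no reads in NMPs. The element with the largest log2 ratio, in an intron of the semaphorin gene Sema3d at chr5:12525080-12525676, had 0, 0 and 2.15 normalized counts in the NMP samples and 731, 495 and 688 in the p0-1 samples. Summed over samples this was 2 reads against 2123, a ratio of 806 with a 95% counting interval of 223 to 6659. The intergenic element at Cdh7, a cadherin gene, had 0, 0 and 0 normalized counts in NMPs and 303, 172 and 156 in p0-1 NPs, at least 176-fold higher when set against a floor of 3 reads over the NMP samples. In both cases every p0-1 sample stood far above every NMP sample, and the leading elements were chosen among those whose groups do not overlap. The other 8 of the 10 leading opened elements had Mannr, Speer4f2, Tox, Cntn6, Agpat4, Chmp4c, 4930412B13Rik and Nbea as nearest genes. The intron element of Agpat4, which encodes an acyltransferase, went from 9.70, 1.35 and 5.38 to 1203, 1596 and 1464 normalized counts. In all, 19 opened elements had at most 3 reads over the NMP samples, and 1 had 0. Counting intervals cover counting error only.

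The leading closed elements also had few reads at their low end, with p0-1 means from 1.60 to 5.69 normalized counts. The NMP means of the leading opened elements ran from 0 to 6.87. An intron element of Pdgfrl at chr8:40938204-40939536 had 542, 928 and 689 normalized counts in NMPs and 6.15, 4.11 and 6.81 in p0-1 NPs, a log2 ratio of -6.75 (VST difference -5.49 ± 0.24 SE, n = 3 per group, limma with Benjamini-Hochberg adjusted p = 9.58e-12). The groups did not overlap, by the rule that chose these elements. The lowest NMP sample was replicate 1, as it was in all 10 of them. The others were nearest to Naa30, 9230102K24Rik, Gucy1a2, A530053G22Rik, Erich3, Kirrel3, Dmgdh, Mir146b and Bmerb1, with log2 ratios from -6.66 to -6.13. The element at Erich3 was under the filter on the mean after promoter scaling and was not tested there.

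Elements of NMP and caudal epiblast genes had the largest share of closed elements among the 15 gene lists examined. Of the 49 tested elements nearest to 18 of these genes, 21 closed and 1 opened, and their median log2 ratio was -1.64. That is 42.9% closed and 2.04% opened, against 9.81% and 12.7% of all tested elements. After promoter scaling 13 of 46 closed. Among the leading elements of this list the one in the Cdx1 gene had the highest NMP level, with 2171, 2267 and 2449 normalized counts in NMPs and 97.5, 161 and 139 in p0-1 NPs, a log2 ratio of -4.10 (VST difference -4.01 ± 0.17 SE, n = 3 per group, limma with Benjamini-Hochberg adjusted p = 1.02e-11). Cdx proteins set up the trunk and tail axis. The intergenic element 2.15 kb from the Cdx2 TSS had 532, 471 and 669.9 normalized counts in NMPs and 16.7, 32.9 and 60.4 in p0-1 NPs. The Cdx4 intron element printed above, chrX:103325783-103327073, had 132, 190.2 and 314 and then 11.4, 6.17 and 19.6, a log2 ratio of -3.99. At each of the 3 Cdx genes the lowest NMP sample lay above the highest p0-1 sample. The groups did not overlap in any called element, nor in 83.9% of all tested elements.

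T, which encodes Brachyury, is needed for axis elongation and mesoderm. Its leading element, 19.6 kb from the TSS at chr17:8413624-8416071, went from 331, 546 and 594 normalized counts to 58.0, 65.8 and 65.5 (VST difference -2.70 ± 0.21 SE, n = 3 per group, limma with Benjamini-Hochberg adjusted p = 7.06e-09). The T promoter held 1056, 1280.0 and 1188 and then 182, 260.2 and 294, a log2 ratio of -2.26 that fell short of the threshold after promoter scaling. Evx1, Sp8, Wnt8a and Fgf17 had closed leading elements too, with log2 ratios of -3.82, -3.39, -3.72 and -2.16, the last of which was not called after promoter scaling. Those of Nkx1-2, Wnt3a, Fgf8 and Cyp26a1 did not pass, with log2 ratios of -1.64, -1.79, -1.36 and -1.11. The single opened element of this list was 1.66 kb from Hes3, a gene of the Notch-associated Hes family, with 302, 353 and 386 normalized counts in NMPs and 2586, 2244 and 2399.8 in p0-1 NPs.

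Of 86 tested elements of Wnt response genes 25 closed (29.1%) and 10 opened (11.6%), against 9.81% and 12.7% of all tested elements. Their median log2 ratio was -1.13, and after promoter scaling 15 of 84 closed and 13 opened. Sp5, with 5 of 5 tested elements closed, was also counted among the NMP and caudal epiblast genes. Axin2, a scaffold of the β-catenin destruction complex, had its leading element 13.4 kb from the TSS, with 461, 757 and 731 normalized counts in NMPs and 6.15, 15.4 and 11.9 in p0-1 NPs (VST difference -4.89 ± 0.25 SE, n = 3 per group, limma with Benjamini-Hochberg adjusted p = 4.62e-11). Of its 12 tested elements 2 closed and 2 opened. The intron element of Znrf3, a ubiquitin ligase that removes Wnt receptors, went from 558, 1006 and 844 to 15.8, 13.4 and 14.5. That of Nkd1, an inhibitor of Dishevelled, went from 675, 823 and 1031 to 28.1, 22.6 and 26.4. At all 3 genes the element was accessible in each NMP sample and held at most 28.1 normalized counts in each p0-1 sample. The inhibitor genes Dkk1, Nkd2, Apcdd1, Wif1 and Rnf43 had no called element.

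Elements of the TCF/LEF genes did not all move one way. Of 9 tested elements of Lef1 4 closed and 0 opened, and of 5 of Tcf7 2 closed and 0 opened, with lowest log2 ratios of -2.63 and -2.94. Tcf7l2 had 1 closed element, at -4.62, and 2 opened ones of 6, the higher at 3.87. Tcf7l1, which encodes the family member best known as a repressor, had 3 opened and 3 closed elements of 10, with log2 ratios from -3.18 to 5.12. Its leading element, in an intron, had 32.7, 28.3 and 31.2 normalized counts in NMPs and 1106, 1119 and 1089 in p0-1 NPs (VST difference 4.71 ± 0.17 SE, n = 3 per group, limma with Benjamini-Hochberg adjusted p = 2.03e-12). The Sp5 promoter, at 3489.8, 4355 and 4479 normalized counts in NMPs, had 544, 756 and 877 in p0-1 NPs, and the Sp5 element 30.7 kb away went from 272, 495 and 529 to 22.0, 19.5 and 18.7. An element 437 kb from the non-canonical ligand gene Wnt5a opened, with a log2 ratio of 5.31, and of the 8 tested there 3 opened and 1 closed.

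Of 52 tested elements of pluripotency genes 14 closed (26.9%) and 1 opened (1.92%), against 9.81% and 12.7% of all tested elements. Their median log2 ratio was -1.14, and 6 of 49 closed after promoter scaling. Pou5f1, with 2 of 2 tested elements closed, was also counted among the NMP and caudal epiblast genes. The promoter of Pou5f1, which encodes OCT4, was one of the 216 promoter-TSS elements that closed, with 1108, 1898 and 1532 normalized counts in NMPs and 64.1, 85.4 and 98.7 in p0-1 NPs (VST difference -3.98 ± 0.20 SE, n = 3 per group, limma with Benjamini-Hochberg adjusted p = 4.97e-11). Leading elements of Tfcp2l1, Klf5, Esrrb, Utf1 and Nanog closed as well, with log2 ratios of -4.86, -4.16, -3.55, -2.71 and -2.51. The one of Nanog was under the filter after promoter scaling. The opened element lay near Sall4, with a log2 ratio of 2.06. Those of Otx2, Sall4, Zfp42 and Tdgf1 closed on the deposited scale and were not called on the promoter scale.

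**Figure D2:**
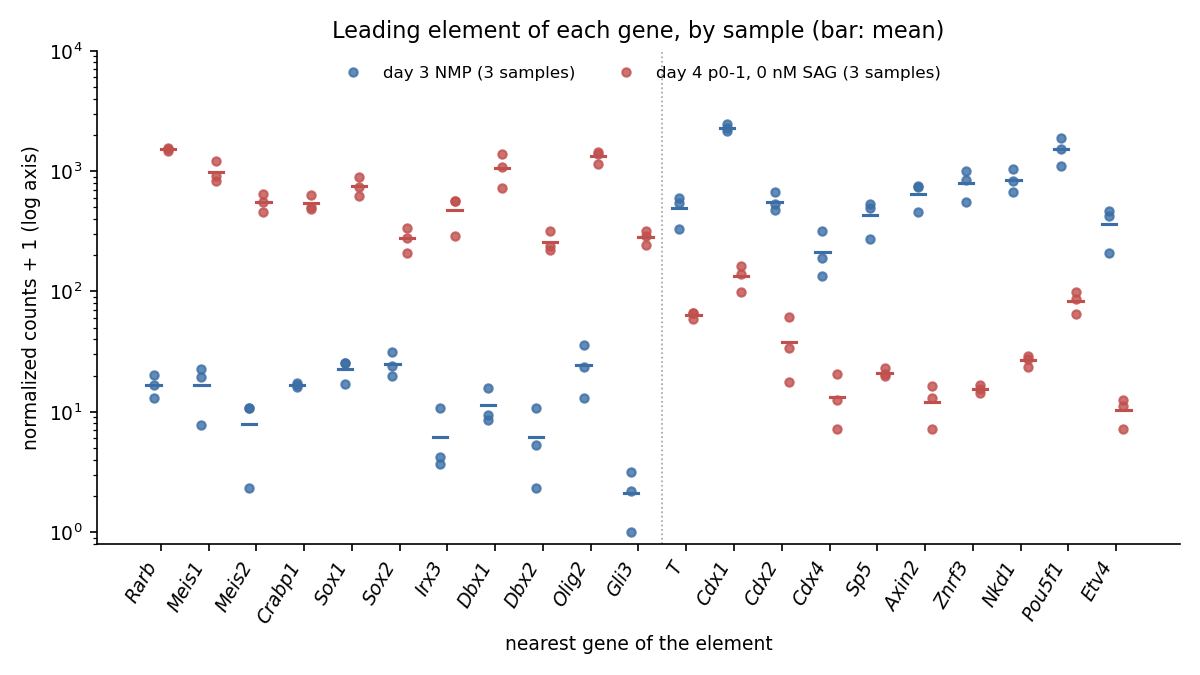
Normalized counts plus 1, on a log axis, of the leading element of 21 genes in each of the 3 NMP (blue) and 3 p0-1 (red) samples, with bars at the group means. Opened elements stand to the left of the dotted line and closed ones to the right. In none of them do the samples of the groups overlap, as in every called element.

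Elements of RA genes opened in more cases than they closed. Of 72 tested elements 19 opened (26.4%) and 3 closed (4.17%), against 12.7% and 9.81% of all tested elements. Of tested elements in introns and between genes 18.3% and 21.1% opened. The median log2 ratio of the RA elements was -0.28, which is 0.29 above that of all tested elements. The element of Rarb, an RA receptor gene that RA itself induces, lay in an intron 158 kb from the annotated TSS at chr14:16732989-16734165. It had 15.8, 12.1 and 19.4 normalized counts in the NMP samples and 1536, 1562 and 1479.9 in the p0-1 samples, a log2 ratio of 6.51 (VST difference 5.83 ± 0.18 SE, n = 3 per group, limma with Benjamini-Hochberg adjusted p = 1.32e-12). The replicates of each group differed by far less than the groups. The Meis1 element printed above, in an intron 133 kb from the TSS, went from 21.8, 6.74 and 18.3 to 1214, 819.7 and 909.7. The Meis2 element went from 9.70, 1.35 and 9.69 to 647, 455 and 551. Meis1 and Meis2 encode homeodomain cofactors of Hox proteins. Crabp1, which encodes a cytoplasmic RA-binding protein, had 15.8, 16.2 and 15.1 normalized counts in NMPs and 501, 630.4 and 483 in p0-1 NPs at an element 4.98 kb away.

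Leading elements of Rxra and Tshz1 opened too, with log2 ratios of 2.34 and 4.43. Of the 19 opened elements 6 lay near Meis1 and 3 each near Tshz1 and Crabp1. Meis2, Rarb and Dhrs3 had 2 each and Rxra had 1. The Rara and Rarg leading elements were not called, at -1.89 and -1.73, nor was that of the RA-synthesizing enzyme gene Aldh1a2, at -0.86. The closed elements were those of Dhrs3, which encodes a retinaldehyde reductase, Stra6, the gene of a retinol transporter, and Cyp26b1, the gene of an RA-degrading enzyme. They had log2 ratios of -5.47, -2.12 and -2.02, of which Dhrs3 was also called on the promoter scale, Stra6 was not called there and Cyp26b1 was under the filter. Dhrs3 also had 2 opened elements, the higher at a log2 ratio of 4.32. NMP replicate 3 was high at Dhrs3, with 162, 146 and 478 normalized counts in the NMP samples against 5.27, 6.17 and 3.40 in p0-1 NPs.

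Of 135 tested elements of neural progenitor genes 32 opened (23.7%) and 8 closed (5.93%), against 12.7% and 9.81% of all tested elements. Their median log2 ratio was 0.01, and after promoter scaling 36 of 133 opened and 2 closed. The opened share was nearer to that of all tested elements in introns and between genes, of which 18.3% and 21.1% opened. SoxB1 genes encode factors that hold cells in a neural progenitor state. The intron-annotated element 14.3 kb from Sox1, at chr8:12409016-12410666, had 24.2, 24.3 and 16.2 normalized counts in NMPs and 623, 888 and 735 in p0-1 NPs (VST difference 4.51 ± 0.20 SE, n = 3 per group, limma with Benjamini-Hochberg adjusted p = 1.33e-11). Elements 29.6 kb from Sox2 and 94.0 kb from Sox3 opened, with log2 ratios of 3.46 and 3.55, while the Sox2 promoter had 1513 ± 91.0 normalized counts in NMPs and 1451 ± 256 in p0-1 NPs (SD, n = 3).

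Irx3, Dbx1, Pax3 and Pax7, genes of the dorsal and intermediate neural tube, each had opened and closed elements. Dbx1 and Dbx2 encode homeodomain proteins of the p0 and p1 domains, and Irx3 one of the intermediate tube. The Dbx1 element 59.8 kb from the TSS went from 8.49, 14.8 and 7.54 to 1387, 718 and 1071 normalized counts, a log2 ratio of 6.55 (VST difference 5.62 ± 0.24 SE, n = 3 per group, limma with Benjamini-Hochberg adjusted p = 9e-12). It was the only opened one of 10 tested at Dbx1, where 2 closed and the lowest log2 ratio was -4.11. The Irx3 element went from 9.70, 2.70 and 3.23 to 562, 558 and 290.2, with p0-1 replicate 3 the lowest of its group and still above every NMP sample. The Dbx2 element had 9.70, 1.35 and 4.31 and then 318, 221 and 237. Irx3 had 7 opened and 1 closed element of 15 tested. Pax3 and Pax7, which mark the dorsal tube, each had 2 opened elements and 1 closed. Their highest log2 ratios were 4.59 and 3.20 and their lowest -2.34 and -2.01. Msx1 and Zic2 had 1 tested element each, at log2 ratios of -1.11 and -0.86, and neither was called.

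Pax6, one of the sorting markers, already had open elements in NMPs. Its leading element, in an intron at chr2:105687273-105691534, had 829, 828 and 635 normalized counts in NMPs and 2003, 2077 and 2068 in p0-1 NPs, and was not called, at a log2 ratio of 1.42. Notch pathway genes contributed an opened element 2.98 kb from the ligand gene Dll1, with 26.7, 40.5 and 24.8 normalized counts in NMPs and 707, 779 and 862 in p0-1 NPs, and one 4.04 kb from the target gene Hes5, with a log2 ratio of 3.89. Of the 8 closed elements of this list 5 were those of Dbx1, Irx3, Pax3 and Pax7 given above, and the others lay near Pou3f1, Sp8 and Zic5, with log2 ratios of -2.79, -3.39 and -2.09, the last on the deposited scale only.

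FGF-ERK feedback genes had both opened and closed elements. Of 84 tested 19 opened (22.6%) and 14 closed (16.7%), against 12.7% and 9.81% of all tested elements. Their median log2 ratio was -0.26, and 22 opened and 8 closed after promoter scaling. The opened share was nearer to that of all tested elements in introns and between genes, of which 18.3% and 21.1% opened. Etv4, an ETS factor gene that FGF induces, had 208, 419 and 463 normalized counts in NMPs and 11.4, 6.17 and 10.2 in p0-1 NPs at an element 16.4 kb away (VST difference -4.16 ± 0.29 SE, n = 3 per group, limma with Benjamini-Hochberg adjusted p = 1.93e-09). The immediate early gene Egr1 had 1 closed element of 3, at a log2 ratio of -3.04. The feedback inhibitor genes had elements of both kinds. Of 8 tested elements of Spry2 1 closed and 2 opened, with log2 ratios from -4.50 to 3.08, and of 5 of Spry4 3 closed and 1 opened, from -3.84 to 3.00. Of 12 at Spred2 4 opened and 3 closed, down to -4.25, and its leading element, 369.7 kb away, went from 24.2, 8.09 and 15.1 to 1805, 1492 and 1565. An intron element of the receptor gene Fgfr2 went from 2.42, 6.74 and 8.62 to 870.2, 533 and 1023. Elements of Dusp4 and Dusp6, which encode ERK phosphatases, opened as well, 2 at each gene, and 1 of Dusp6 closed, at a log2 ratio of -2.07. The Dusp4 one rested on 3 reads over the NMP samples against 779, a ratio of 197 with a 95% counting interval of 67.2 to 958. Its promoter had 4328 ± 707 normalized counts in NMPs and 2739.7 ± 455 in p0-1 NPs (SD, n = 3) and was not called.

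Of 48 tested elements of Hedgehog pathway genes 12 opened (25%) and 4 closed (8.33%), with a median log2 ratio of -0.09. Of all tested elements 12.7% opened and 9.81% closed, and of those in introns and between genes 18.3% and 21.1% opened. The opened ones included elements of co-receptor and ligand-handling genes. That of Gas1 had 40.0, 36.4 and 23.7 normalized counts in NMPs and 911, 469 and 738 in p0-1 NPs, that of Cdon had 27.9, 27.0 and 23.7 and 916, 627 and 774, and an intron element of Scube2, whose product helps release the ligand, had 18.2, 20.2 and 12.9 and 711, 598 and 763. All 3 were low in each NMP sample and high in each p0-1 sample, and no called element had overlapping groups. The intergenic element 242 kb from Gli3, which encodes the main repressor of the pathway, held 3 reads over the NMP samples and 932 over the p0-1 samples, a ratio of 236 with a 95% counting interval of 80.5 to 1146. Elements of Gli2 and of the ligand-binding inhibitor gene Hhip opened, with log2 ratios of 2.47 and 4.44.

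Closed elements of this pathway included those near Boc, another co-receptor gene, Gli3 and Gli2, with log2 ratios of -3.60, -3.63 and -2.08. Boc, Gli2 and Gli3 each had elements that opened and elements that closed. The leading elements of Gli1 and Smo were not called, at -0.70 and -1.78. The one of the receptor gene Ptch1, at 121, 162 and 172 normalized counts in NMPs and 704, 349.7 and 615 in p0-1 NPs, had a log2 ratio of 1.87 and was called only after promoter scaling.

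Genes of ventral progenitors, which p0-1 cells are not, had the largest share of opened elements among the lists. Of 41 tested elements 17 opened (41.5%) and 1 closed (2.44%), against 12.7% and 9.81% of all tested elements. Their median log2 ratio was -0.55, close to that of all tested elements. Of tested elements in introns and between genes 18.3% and 21.1% opened. Among the 17 opened elements 8 lay near Nkx6-1, 3 each near Nkx6-2 and Foxa2, and 1 each near Olig1, Olig2 and Shh. Normalized counts summed over the 41 tested elements of the list were 12738 to 14217 in NMPs and 15581 to 17912 in p0-1 NPs. Olig2, which encodes the determinant of motor neuron progenitors, had 35.2, 12.1 and 22.6 normalized counts in NMPs and 1394, 1138 and 1438 in p0-1 NPs at an element 32.5 kb from its TSS (VST difference 5.31 ± 0.23 SE, n = 3 per group, limma with Benjamini-Hochberg adjusted p = 8.9e-12). An element 140.4 kb from Nkx6-1, a gene whose product the p0-1 gate excluded, went from 13.3, 16.2 and 17.2 to 595, 355 and 603, while the promoter had 2068 ± 101 normalized counts in NMPs and 1349 ± 197 in p0-1 NPs (SD, n = 3), a log2 ratio of -0.62. The element 65.9 kb from Foxa2, a floor plate and p3 gene, went from 6.06, 4.05 and 8.62 to 508, 154 and 369, with p0-1 replicate 2 the lowest of its group, and its promoter had a log2 ratio of -1.31. The closed element of the list also had Foxa2 as its nearest gene, with a log2 ratio of -3.61, and is the closed one among endoderm genes below. Elements of Nkx6-2, Olig1 and Shh opened too, with log2 ratios of 5.09, 4.63 and 3.86. No element of Nkx2-2 was tested.

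Of 26 tested elements of Hox paralogue groups 1 to 5, 2 opened (7.69%) and 1 closed (3.85%), against 12.7% and 9.81% of all tested elements, with a median log2 ratio of -0.50. All 3 were nearest to Hoxc4, where the closed one had a log2 ratio of -2.81 and the leading opened one, 31.3 kb from its TSS, went from 9.70, 13.5 and 15.1 to 525, 382 and 482 normalized counts. In groups 6 to 9, 0 of 19 opened and 2 closed (10.5%), near Hoxb9 and Hoxd9, with a median of -1.14. In groups 10 to 13, 0 of 21 opened and 3 closed (14.3%), near Hoxb13, Hoxc10 and Hoxc11, with a median of -1.36. After promoter scaling the medians were -0.03, -0.68 and -0.88, and of the 5 closed elements in groups 6 to 13 the call held at Hoxc11 alone, with 218, 221 and 235 normalized counts in NMPs and 14.9, 30.9 and 41.7 in p0-1 NPs. The Hoxa2 promoter, at 617, 529 and 569 and then 1508, 1413 and 1639, had a log2 ratio of 1.41 and was not called.

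Lists for other cell types were read for cells that either population could hold. Of 41 tested elements of paraxial mesoderm genes 8 closed (19.5%) and 0 opened (0%), against 9.81% and 12.7% of all tested elements. Their median log2 ratio was -1.18, and 4 of 38 closed after promoter scaling. Summed levels were 16999 to 19301 normalized counts in NMPs and 8604 to 11014 in p0-1 NPs. Ripply2, a somite gene, had 328, 718 and 778 normalized counts in NMPs and 13.2, 26.7 and 19.6 in p0-1 NPs. An element 46.1 kb from Foxc1 went from 319, 192 and 384 to 1.76, 5.14 and 9.36. The leading element of Tbx6, a defining gene of this lineage, was its promoter, at a log2 ratio of -0.45.

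Of 25 tested elements of neural crest genes 5 opened (20%) and 1 closed (4%). Of 40 of neuron genes 4 opened (10%) and 0 closed (0%), and of 36 of endoderm genes 9 opened (25%) and 1 closed (2.78%). Among the 9 opened endoderm elements, 3 were those of Foxa2, also counted among the ventral progenitor genes. The shares over all tested elements were 12.7% and 9.81%, and 18.3% and 21.1% of those in introns and between genes opened. Summed levels overlapped between NMPs and p0-1 NPs for neural crest (11417 to 12860 and 11021 to 12230 normalized counts) and endoderm (13792 to 15328 and 12239 to 15360), and were lower in p0-1 NPs for neurons (20726 to 23560 and 15664 to 18941). Opened elements of these lists included those of Ednrb, the gene of an endothelin receptor, Neurog2 and Neurod4, which encode proneural factors, Cxcr4 and Gata6, with log2 ratios of 6.76, 4.50, 5.77, 5.60 and 5.83. The 5 opened neural crest elements lay near Ednrb (3) and Ets1 (2), which also had the closed one, and the 4 opened neuron elements near Neurod4 (2), Neurog2 and Elavl4. Some of these genes, such as Neurog2, are also active in neural progenitors, and accessibility does not measure expression. The part of other cells in these results was not tested.

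**Figure D3:**
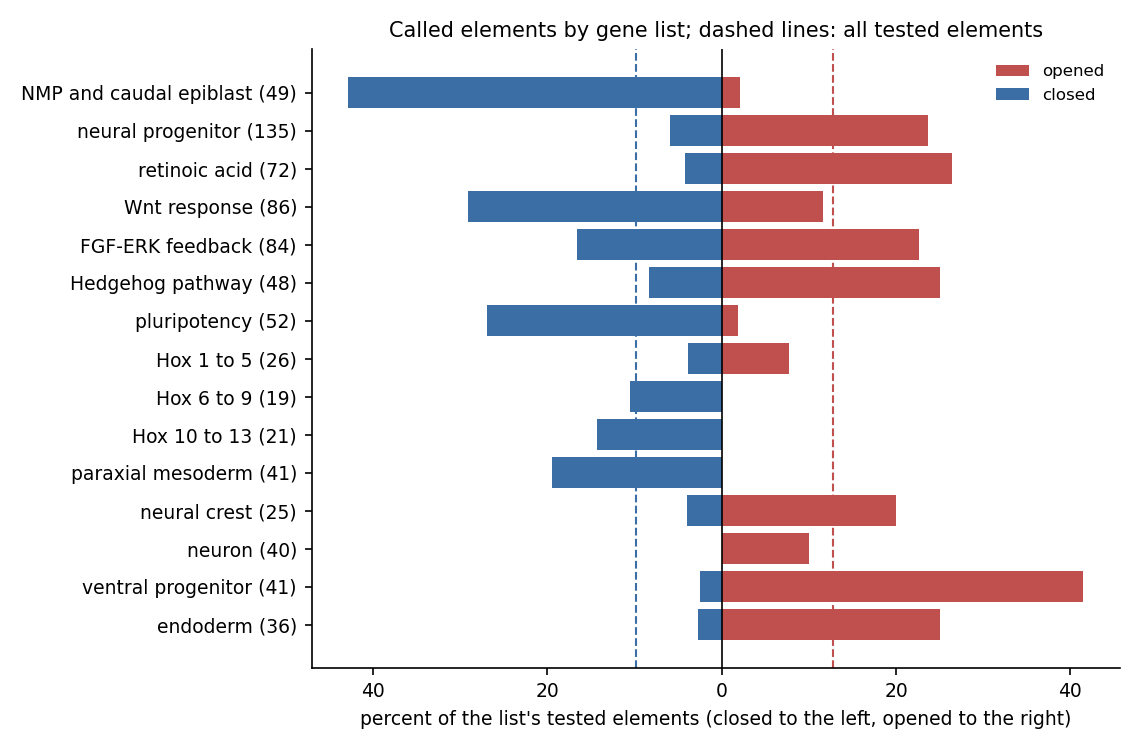
For each gene list, with its number of tested elements in brackets, bars show the percentage of tested elements that opened (right, red) and closed (left, blue), and dashed lines mark the 12.7% and 9.81% of all tested elements. The largest closed share is that of NMP and caudal epiblast genes, at 42.9%, and the largest opened share that of ventral progenitor genes, at 41.5%.

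The letters of known binding motifs were counted in the central 300 bases of each element, exact and on both strands. The SOX letters ACAAAG or ACAATG were in 60.3% of opened, 30.8% of closed and 24.7% of other tested elements, and in 44.6% of all 111638 elements. The TCF/LEF letters ATCAAAG were in 8.80% of closed, 4.86% of opened and 2.72% of other tested elements, against 5.04% of all elements. The letters ATCAAAG contain neither of the SOX words, on either strand. Among the 10 leading opened elements 9 held SOX letters, and among the 10 leading closed elements 4 held TCF/LEF letters. Matches are descriptions of the sequence and do not show binding.

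Base composition moved with these shares. In elements with a GC content from 45 to 50%, a restriction chosen after the data were seen, the SOX letters were in 59.9% of 1641 opened, 38.6% of 822 closed and 38.4% of 4045 other elements. The TCF/LEF letters were in 4.33%, 11.8% and 5.09% of the same elements. The homeodomain letters TAATTA were in 9.55% of opened, 5.47% of closed and 3.54% of other elements of any GC content, and in 7.74%, 8.76% and 7.47% within that range of GC. In the order opened, closed and other, the nuclear receptor letters AGGTCA were in 20.7%, 17.8% and 14.1%, and the CDX letters TTTATGG or TTTATTG in 11.0%, 7.66% and 4.46%. Within that range of GC they were in 20.2%, 15.6% and 16.9%, and in 10.5%, 11.9% and 8.70%, so that the order of opened and closed elements turned for CDX. The POU octamer ATGCAAAT was in 1.90%, 3.26% and 1.48%, the T-box letters AGGTGTGA in 0.830%, 1.99% and 0.774%, and the TEAD letters GGAATG in 23.7%, 17.8% and 13.4%. The E-boxes CAGCTG or CATATG were in 24.8%, 27.9% and 20.8%, and within that range of GC in 26.9%, 23.0% and 22.9%, where the order of opened and closed turned. The GLI letters CCACCCA were in 6.79%, 11.7% and 9.03%, and the ZIC letters CCTGCTG in 11.1%, 19.4% and 13.6%. The RFX letters GTTGCC were in 12.6%, 10.9% and 11.7%, and the ETS letters CCGGAA in 3.05%, 7.03% and 14.6%.

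**Figure D4:**
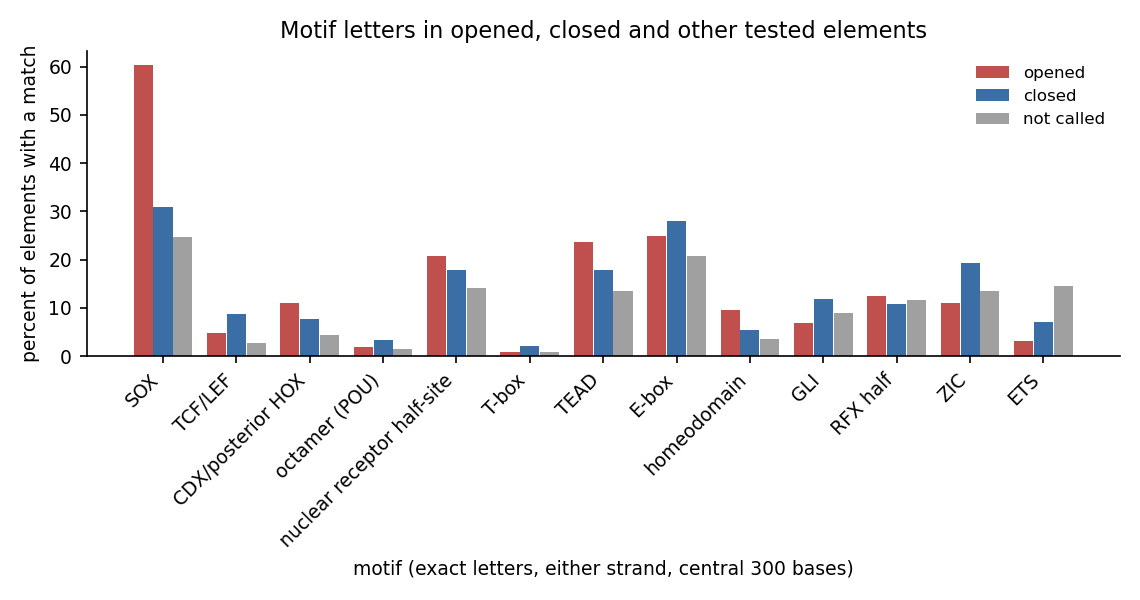
Bars give the percentage of 4095 opened (red), 3160 closed (blue) and 24945 other tested elements (gray) whose central 300 bases hold the exact letters of each motif on either strand. The SOX letters stand out in opened elements at 60.3%, and the TCF/LEF letters are most frequent in closed elements at 8.80%.

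Most opened elements were also accessible at later days in p0-1 NPs without SAG. In the median opened element the samples had 290.0 to 371 normalized counts at day 4, 357 to 445 at day 5 and 299 to 403 at day 6, where there were 2 samples, against 17.5 to 23.7 in NMPs. Closed elements went lower, from 40.4 to 48.3 at day 4 to 31.0 to 33.3 at day 5 and 27.8 to 29.4 at day 6. The day 4 values chose these elements, so the later days are described without a test. At day 6, 3551 opened elements were nearer on the log scale to their p0-1 level of day 4 and 544 (13.3%) nearer to their NMP level, whereas 33 of the 3160 closed elements were nearer to their NMP level.

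The 544 had median normalized counts of 28.6 in NMPs, 289 at day 4, 92.9 at day 5 and 44.6 at day 6. Several leading elements were among them. The Chmp4c element went from 597, 751 and 589 normalized counts at day 4 to 139.6 to 199 at day 5 and 27.1 to 33.7 at day 6. That of Dusp4 had 213, 266 and 237 at day 4 and 9.42 to 9.91 at day 6. The leading element of 9430078K24Rik had 569, 579 and 689 at day 4 and 16.5 to 19.8 at day 6. The Sox1 element, at 125 to 159.6 normalized counts at day 6, and the Irx3 element, at 94.2 to 98.9, declined less far. Rarb and Dbx1 differed from these, with 1348 to 1526 and 1783 to 2027 normalized counts at day 6.

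**Figure D5:**
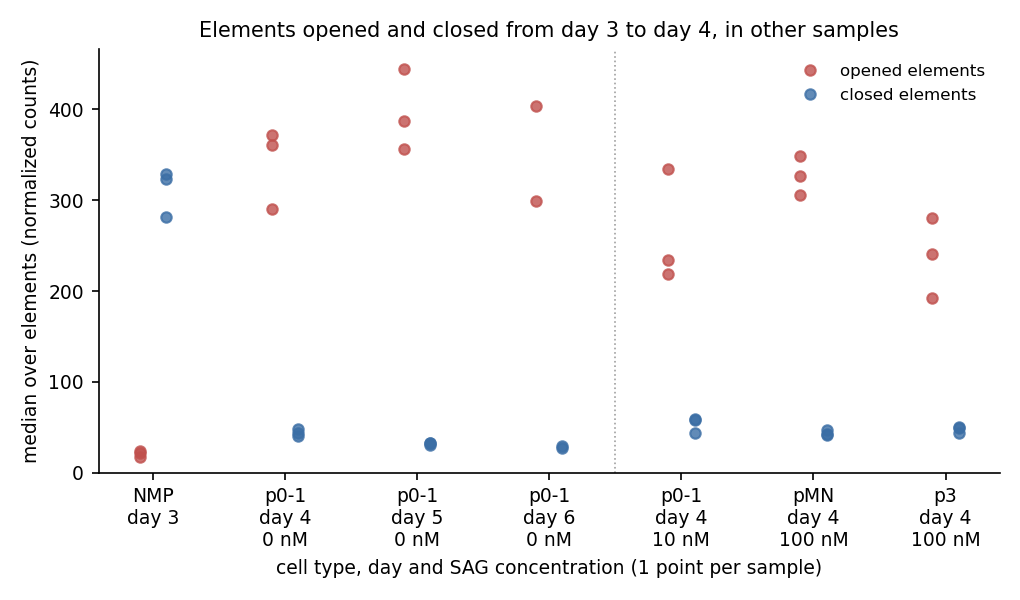
Each point is the median normalized count over the 4095 opened (red) or 3160 closed (blue) elements in 1 sample, for NMPs, p0-1 NPs without SAG at days 4 to 6 and, right of the dotted line, day 4 NPs with SAG. The medians of opened elements are between 192 and 445 in the NP samples and at most 23.7 in NMPs, and those of closed elements are at most 58.7 in the NP samples.

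NPs sorted at day 4 from cultures with SAG showed most of the same landscape. The next tests compared them directly with the p0-1 samples in 0 nM SAG, which chose the opened and closed elements and so favor lower values of opened elements elsewhere. Between p0-1 NPs in 10 and 0 nM SAG, 0 of 29373 elements (0%) were called by limma, and the median log2 ratio of the 4095 opened elements was -0.38. An unadjusted p under 0.05 was found for 834 elements, for 5520 with the replicate number as a block, and for 81 to 5249 without 1 sample, the lowest without replicate 3 in 0 nM SAG and the highest without replicate 1 in 10 nM SAG. Between pMN, the motor neuron progenitors, in 100 nM SAG and p0-1 NPs, 115 of 29923 elements (0.384%) were higher and 8 (0.0267%) lower. Of the opened elements 4 were higher in pMN, near Tbc1d2b, Pygb, Nkx6-1 and Tle1, and 6 were lower, among them elements of Sfrp5, Cdk6, Dbx1, Fgfr2 and Gm8633. The 6 became 1 on the promoter scale, 3 without pMN replicate 1 and 15 without either p0-1 replicate 2 or pMN replicate 3, and the 4 became 1 without p0-1 replicate 2 and 2 on the promoter scale or without pMN replicate 3. The element of Sfrp5, a secreted Wnt inhibitor gene, had means of 12.4 normalized counts in NMPs, 1134 in p0-1 NPs and 161 in pMN (limma with Benjamini-Hochberg adjusted p = 0.000389, n = 3 per group).

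The most ventral type, p3 in 100 nM SAG, differed more. There 169 of 29452 elements (0.574%) were higher than in p0-1 NPs and 423 (1.44%) lower. Of the 423 lower elements 349 (82.5%) were opened ones, which is 8.53% of the opened elements tested against 0.140% of those not called between NMPs and p0-1 NPs. The opened elements were chosen for high values in the same p0-1 samples, which favors this contrast, and its size apart from that choice was not tested. Without p0-1 replicate 1, 124 elements were lower, 118 of them opened, and without p0-1 replicate 2, 681 were lower, 478 of them opened. At day 4 the Dbx1 element had a mean of 1058 normalized counts in p0-1 NPs and 49.3 to 60.5 over the p3 samples, with an NMP mean of 10.3 (log2 ratio -4.28, limma with Benjamini-Hochberg adjusted p = 2.7e-06, n = 3 per group). Other opened elements that were low in p3 lay near Ankrd44, Lrrc59, Ttc27 and Gm31747, with means of 9.79 to 21.6 normalized counts against 232 to 359 in p0-1 NPs.

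A few closed elements were high in p3. The 4 called ones included elements nearest to Inhbb, Lsm6 and Zdhhc14. That of Inhbb, an activin subunit gene, had means of 462 normalized counts in NMPs, 76.2 in p0-1 NPs and 562 in p3, and that of Lsm6 had 685, 156 and 776. The element of Zdhhc14 was also higher in pMN, as 1 of 2 closed elements called there. At Zdhhc14 the means were 183 normalized counts in NMPs, 43.4 in p0-1 NPs, 181 in pMN and 210.3 in p3, so that the levels in pMN and p3 were near that in NMPs. In p0-1 NPs in 10 nM SAG, 0 of the 3160 closed elements were nearer on the log scale to their NMP level.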

How the data were processed

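Accessibility was measured by CaTS-ATAC in sorted mouse cells. The authors aligned reads to mm10 with nf-core/atacseq, called peaks with MACS, kept consensus elements found in at least 2 replicates, counted reads with featureCounts, and deposited the counts after DESeq2 size factors and its variance-stabilizing transformation (VST), on a log2 scale. A HOMER annotation gave coordinates and the nearest TSS. The GRCm38 reference was checked against these coordinates, and 90.3% of 8225 promoter-TSS elements had their gene within 5000 bp.

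Normalized counts and reads were recovered by inverting the VST, and 100% of the values under 1000 reads came out whole (within 0.01). Depth in the series was 9298160 to 29985325 reads in elements. Differential accessibility was tested on the VST values with limma 3.58.1 in R 4.3.3, with a variance trend, two-sided, on the groups compared only, adjusted by the Benjamini-Hochberg method over elements with a mean above 100 normalized counts. The study's methods use DESeq2, which was not run here, and voom was run on the recovered reads as an alternative. Calls required a log2 ratio above 2 or below -2 (pseudocount 1) at an adjusted p under 0.01. The fit was tested on simulated data. Tables and figures were made in Python 3.11.15.

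Named elements were, in each direction, the 10 with the largest ratios and groups that do not overlap, at most 1 per gene, the leading and promoter elements of 15 gene lists, the 8 genes with the most opened and with the most closed elements, and elements of counts of 5 or fewer. Leading elements are those with the largest absolute log2 ratio among the tested elements of a gene. Genes listed beyond 8 because of ties were chosen after their values were seen. The comparison, lists and motifs were chosen with earlier results of these data known. Some of the elements that this rule takes are not reported here. Alternatives covered filters, thresholds, scaling, the variance trend, voom on recovered reads, a replicate block, all samples in the fit and leaving out each replicate.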

Additional observations from a re-analysis of the deposited data

Results flagged for a closer look

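Elements of 3 genes differed between cell types at day 4 by the direct test of the difference (limma, Benjamini-Hochberg adjusted, n = 3 per group), with p0-1 NPs in 0 nM SAG as the reference. The Dbx1 element at chr7:49696204-49697027 was lower in pMN at 100 nM SAG, with a log2 ratio of -2.19 (adjusted p = 0.000778), and in p3 at 100 nM SAG, with -4.28 (adjusted p = 2.7e-06). The Foxa2 element at chr2:147980705-147981500 was lower in p3, with a log2 ratio of -3.08 (adjusted p = 0.00047) and its promoter had a mean of 1238 normalized counts in p3 against 600.1 in p0-1 NPs. The Pax3 element at chr1:78167221-78168294 was lower in p3, with -2.80 (adjusted p = 1.93e-05). All 3 elements had opened between NMPs and p0-1 NPs, and the p0-1 samples used here are those that chose them.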

How the results depend on the processing

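The 4095 opened and 3160 closed elements were unchanged in number without the variance trend, with voom, with all 67 samples in the fit and at an adjusted p under 0.05. These settings change the p-values or their limit and leave the log2 ratios as they were. The equal counts therefore do not test the calls beyond the p-values. Without the filter on the mean 23971 opened and 10937 closed, and with a mean above 20 normalized counts 15031 and 10508. At a log2 ratio above 1, 5198 opened and 10000 closed, which turned the order of the counts. After centering 2040 closed and on the promoter scale 1631. Leaving out each replicate gave 3858 to 4506 opened and 2984 to 3413 closed. For pMN against p0-1 NPs, 123 calls became 606 without the filter, 625 at a log2 ratio above 1 and 72 on the promoter scale, and 106 to 146 without a replicate. For p3, 592 became 2908, 1995 and 464, and 239 to 848 without a replicate, the lowest without p0-1 replicate 1 and the highest without p0-1 replicate 2. For 10 nM SAG all settings gave 0 calls. The causes were not tested.

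Of 146 called elements that the text draws on, 120 kept their call on the promoter scale, 17 lost it and 9 were not tested there. The share of closed elements with TCF/LEF letters was 8.80%, 11.8% at a GC content from 45 to 50% and 9.04% without promoter-TSS elements, alternatives added after the data were seen. With the replicate number as a block, which changes only the p-values, 4095 elements opened and 3160 closed, 125 differed in pMN, 600 in p3 and 0 in 10 nM SAG. Deviations of NMP and p0-1 samples with the same number correlated at -0.09, 0.35 and 0.29 across elements. Those with different numbers correlated at -0.44 to 0.18. The main fit did not pair samples by number, and whether equal numbers mark the same differentiation was not tested.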
